A study of Mus musculus with 6 samples.

Results

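*Brca1* and 7 genes whose products work with it in homologous recombination and the Fanconi anaemia pathway were followed in sorted mouse melanoma cells: *Brca2*, *Bard1*, *Palb2*, *Brip1*, *Rad51c*, *Fancd2* and *Fanci*. The 8 genes were taken by mouse symbol from 18324 gene rows, and each had a row. *Brca1* was singled out because it had been seen higher in high-pigmented cells, and the partners were then named by function to ask whether they follow it or whether it stands alone. Differences of the 8 genes between the pigment groups are therefore given as a description.

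B16-F10 is a mouse melanoma line whose cells vary in melanin content. Cultured cells were sorted into high-pigmented cells (HPC) and low-pigmented cells (LPC), and RNA was sequenced from 3 libraries of each. The groups share the line and the culture medium, no genotype or agent is named, and they differ by the sorting gate. The libraries form 3 pairs, called here pairs 1, 2 and 3, because 1 library of each group shares a title suffix (16-9-15, 18-8-14 and 1-9-14, in that order). The labels give no meaning for the suffix and do not say whether the libraries came from separate cultures, so p-values measure the spread between these libraries, which may be technical.

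Homologous recombination repairs DNA breaks by copying an intact sister chromatid, and cells use it mainly while DNA is replicated and before they divide. BRCA1 pairs with BARD1 as a ubiquitin ligase and promotes the early steps of repair, PALB2 links BRCA1 to BRCA2, and BRCA2 prepares single-stranded DNA for the search for the matching strand. BRIP1 is a helicase that binds BRCA1, RAD51C assists strand exchange, and FANCD2 and FANCI form the complex that is ubiquitinated at crosslinked DNA. Transcripts of many of these genes are known to be more abundant in dividing than in resting cells.

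Counts on genes totalled 3819605 to 7311131 per library. The libraries of pair 2 stood apart: their highest single row took 53.9% of gene counts in HPC and 27.1% in the LPC library, against 3.54% to 5.03% elsewhere, so results are given with and without this pair. Levels are given as CPM, read counts scaled to a common library size with the TMM method, and each count is a read from near the 3′ end of a transcript. Melanocytic markers (*Mlana*, *Pmel*, *Dct*, *Tyrp1*, *Tyr*, *Sox10* and *Mitf*) had a count in every library, with summed levels of 4443 to 20733 CPM. Markers of other cells reached at most 33.2 CPM for immune cells (3 of 7 genes had a row), 23.9 CPM for fibroblasts and endothelium (3 of 8) and 15.1 CPM for epithelium (3 of 7), in each case in the HPC library of pair 2.

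*Brca1* (ENSMUSG00000017146.12, GRCm38 chr11:101488764-101551955, minus strand) had raw counts of 362, 32 and 1184 in the HPC libraries of pairs 1, 2 and 3, and of 146, 0 and 428 in LPC libraries. Normalised, these were 58.9, 18.6 and 138 CPM against 24.1, 0 and 44.9 CPM. The HPC library was the higher one in each pair, yet the groups overlapped, because the HPC library of pair 2 lay below the LPC libraries of pairs 1 and 3. The means were 72.0 ± 61.0 CPM and 23.0 ± 22.5 CPM (SD, n = 3 each). Within pair 1 the ratio of high to low was 2.44 (exact binomial 95% interval 2.01 to 2.98), and within pair 3 it was 3.08 (2.76 to 3.45). These intervals cover counting error only. In pair 2, where the LPC library had no count, the HPC level was at least 21.7-fold higher, with 3 counts taken as the floor of each library at 0. Bounds of this kind leave out the counting error of the library that has counts. Of 11324 genes tested, 2.71%, 0.609% and 1.38% had a larger within-pair difference than *Brca1* in pairs 1, 2 and 3. These differences are in log2 CPM with a prior count of 2, on which the value of pair 2 depends. *Brca1* was chosen because it was seen higher in HPC, so nothing is read from its place among the genes.

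**Figure D1:**
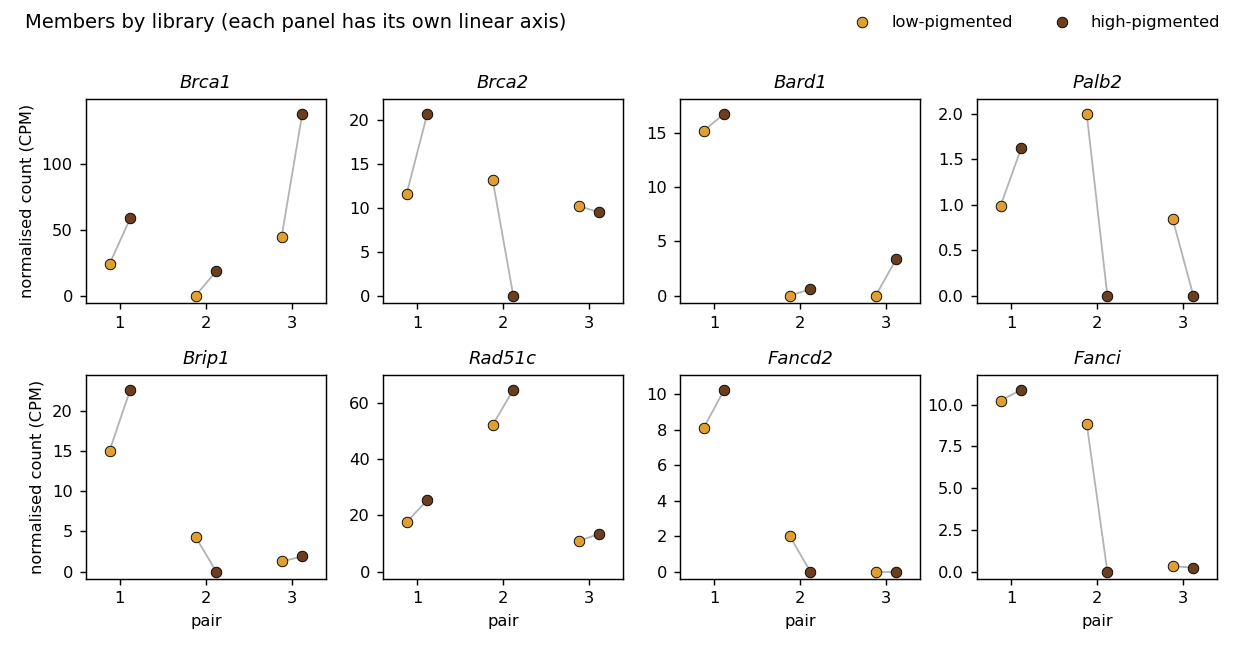
Normalised count (CPM, linear axis with its own range in each panel) of the 8 genes by pair; dark points are HPC and light points LPC libraries, and a line joins the libraries of a pair. *Brca1* is higher in the HPC library of every pair and peaks at 138 CPM in pair 3, where *Fancd2* has no count.

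The neighbouring gene *Nbr1*, which encodes an autophagy receptor, starts 193 bases from *Brca1* and is transcribed in the other direction. Its counts were 325, 89 and 712 in HPC and 323, 115 and 740 in LPC libraries. The ratio of high to low was 0.991 (0.847 to 1.16) in pair 1, 1.58 (1.18 to 2.10) in pair 2 and 1.07 (0.965 to 1.19) in pair 3. In pairs 1 and 3 the interval of *Nbr1* held 1 and lay below that of *Brca1*. No exon of *Brca1* overlaps an exon of another gene in GENCODE vM21, and no transcript of another gene shares a stretch of at least 100 nucleotides at 95% identity with it.

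The promoter windows of *Brca1* and of 2 partners that were lower in pair 3 than in pair 1 are shown, because many repair genes are known to carry E2F-type promoter words. The direction of these 2 partners, given below, was set by how they entered the test, and no link to the words is read. Each window runs from 250 bases before to 50 bases after the gene's start (RefSeq, GRCm38.p6) and is written 5′ to 3′ on the gene's strand. Capitals mark matches on either strand to TTCCCGC or TTGGCGC, words of the kind bound by the E2F factors that switch on S-phase genes. The windows are chr11:101551906-101552205 (minus strand) for *Brca1*, chr7:79392088-79392387 (plus strand) for *Fanci* and chr11:86201144-86201443 (minus strand) for *Brip1*.
Brca1: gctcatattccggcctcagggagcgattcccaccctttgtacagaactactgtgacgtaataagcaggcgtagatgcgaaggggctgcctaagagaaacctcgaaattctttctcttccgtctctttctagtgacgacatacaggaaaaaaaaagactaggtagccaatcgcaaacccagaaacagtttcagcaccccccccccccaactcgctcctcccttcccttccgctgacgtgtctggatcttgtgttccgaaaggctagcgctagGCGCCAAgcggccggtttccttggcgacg
Fanci: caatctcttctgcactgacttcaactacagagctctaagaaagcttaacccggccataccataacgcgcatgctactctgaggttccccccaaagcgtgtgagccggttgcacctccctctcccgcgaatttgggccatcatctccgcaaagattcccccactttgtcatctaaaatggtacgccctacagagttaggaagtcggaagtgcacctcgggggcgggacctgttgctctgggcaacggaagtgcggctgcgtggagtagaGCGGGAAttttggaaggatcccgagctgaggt
Brip1: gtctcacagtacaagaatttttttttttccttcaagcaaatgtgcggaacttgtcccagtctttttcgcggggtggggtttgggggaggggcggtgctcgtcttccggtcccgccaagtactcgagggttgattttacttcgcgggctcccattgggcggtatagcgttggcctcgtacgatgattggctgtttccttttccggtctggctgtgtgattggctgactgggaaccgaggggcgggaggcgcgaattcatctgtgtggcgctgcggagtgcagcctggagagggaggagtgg
The *Brca1* and *Fanci* windows hold 1 such word each, and the *Brip1* window holds none of these letters. A window was in the table for 7 of the 8 genes, and 5 of them hold at least 1 E2F-type word (*Brca1*, *Bard1*, *Brca2*, *Fanci* and *Rad51c*, the last in 1 of its 2 windows), as do 6.81% of 32851 windows of this length. The word TTTGAA, known as the CHR element of genes expressed before mitosis, was found in the *Bard1* window and in 17.9% of all windows. The E-box words CACGTG and CATGTG, of the kind bound by MITF, were found in the *Brca2* window and in 20.4% of all windows. Both strands were searched, and no 2 matches overlapped in the windows of these genes. A match is a run of letters and not a binding site.

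The genes whose proteins bind BRCA1 directly or through PALB2 each had at least 1 pair in which HPC did not exceed LPC beyond counting error. *Bard1* (chr1:71027498-71103146, minus strand) had 103, 1 and 29 counts in HPC and 92, 0 and 0 in LPC libraries of pairs 1, 2 and 3. Its ratio was 1.10 (0.824 to 1.48) in pair 1, and in pair 3 the HPC level was at least 10.8-fold higher. *Palb2* (chr7:122107262-122132985, minus strand) had 10, 0 and 0 counts against 6, 7 and 8. It did not pass the filter on low counts, and no difference was detectable in pair 1 at this depth (ratio 1.64, 0.540 to 5.49). With HPC at 0 in pairs 2 and 3, the floor put the bounds at 1.15-fold and 2.39-fold lower. Both bounds leave out counting error, which is large at 7 and 8 counts, and no direction is read from pair 2. *Brca2* (chr5:150522630-150570329, plus strand) had 127, 0 and 81 counts against 70, 46 and 97. It was higher in the HPC library of pair 1 (1.79, 1.32 to 2.43), at least 7.53-fold lower in that of pair 2, and level in pair 3 within counting error (0.930, 0.684 to 1.26).

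*Brip1* (chr11:86058138-86201193, minus strand), the helicase gene, had 139, 0 and 16 counts in HPC and 91, 15 and 12 in LPC libraries. The ratio was 1.50 (1.15 to 1.98) in pair 1 and 1.49 (0.659 to 3.44) in pair 3. In pair 2 HPC had no count, and the floor put the bound at 2.46-fold lower, counting error aside. *Rad51c* (chr11:87376645-87404954, minus strand) had 156, 111 and 114 counts against 106, 182 and 104, and so was well counted in every library. Its HPC level was the higher one in each pair, with ratios of 1.45 (1.12 to 1.87), 1.24 (0.972 to 1.58) and 1.22 (0.928 to 1.61), each below the ratio of *Brca1* in the same pair. Transcripts of *Brca2* and *Rad51c* share stretches of at least 100 nucleotides with those of 450 and 214 other genes, so reads from these stretches could have been counted elsewhere or lost.

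The Fanconi pair was nearly level between the gates of pair 1. *Fancd2* (chr6:113531682-113597017, plus strand) had 63, 0 and 0 counts in HPC and 49, 7 and 0 in LPC libraries, and its ratio in pair 1 was 1.27 (0.858 to 1.88). *Fanci* (chr7:79391929-79450264, plus strand) had 67, 0 and 2 counts against 62, 31 and 3, with a ratio of 1.06 (0.742 to 1.53) in pair 1. In pair 2 the HPC library had no count of either gene, and the floor put the bound at 5.08-fold lower for *Fanci*. For *Fancd2*, at 0 against 7 counts, the bound of 1.15-fold lower leaves out counting error, and no direction is read. In pair 3 both genes had at most 3 counts in each library and no ratio is given. Exons of *Fanci* overlap those of *Polg* by 921 bases on the other strand, and those of *Fancd2* overlap *Fancd2os* by 257 bases (2 counts in 1 library). Also on the other strand, exons of *Palb2* overlap the processed pseudogene *Gm16326* by 414 bases. Those of *Brca2* overlap the antisense gene *Gm42529* by 41 bases. Neither *Gm16326* nor *Gm42529* has a row. Whether the counting used strand is not given in the sources used here.

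**Figure D2:**
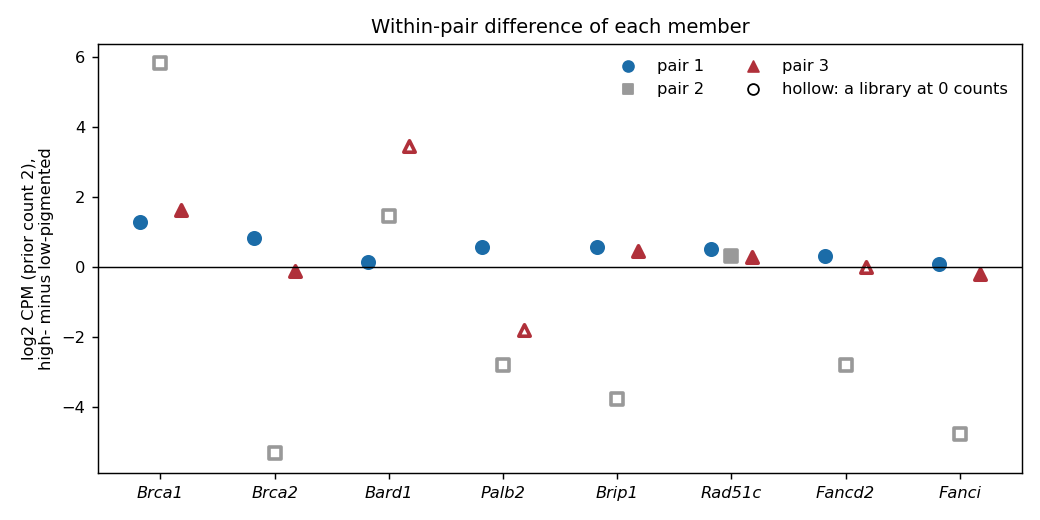
Difference in log2 CPM (prior count 2) between the HPC and LPC library of each pair, for the 8 genes; circles are pair 1, squares pair 2 and triangles pair 3. Hollow points have a library at 0 counts, so their height depends on the prior count; the filled points of *Brca1* lie at 1.28 and 1.62.

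Across the pairs, 3 of the 8 genes were higher in every HPC library than in its partner: *Brca1*, *Rad51c* and *Bard1*, the last by 1 count against 0 in pair 2. The same held for 12.9% of genes tested, but *Brca1* was chosen for this direction, so the count is not read as an excess. None of the 8 had all 3 HPC values above all 3 LPC values, as 2.43% of genes tested did. In edgeR's fit to 6 libraries, which tested 6 of the 8 genes, the log2 fold change of high over low was 1.64 ± 1.31 (SE) for *Brca1*. It was 0.47 ± 1.99 for *Bard1*, 0.35 ± 0.78 for *Rad51c*, 0.28 ± 1.54 for *Brip1*, -0.18 ± 1.18 for *Brca2* and -0.75 ± 1.74 for *Fanci*. With the pair as a replicate block on the same 6 libraries, the change was 2.23 ± 0.92 for *Brca1*, 2.70 ± 1.91 for *Bard1*, 0.38 ± 0.30 for *Rad51c*, -0.43 ± 1.29 for *Brip1*, -0.83 ± 1.45 for *Brca2* and -1.40 ± 1.54 for *Fanci*, and 0 genes were called (213 at an unadjusted p under 0.05). The fit without the block called 0 genes at an adjusted p under 0.05, or 0% of those tested, and 38 had an unadjusted p under 0.05. DESeq2 called 0 genes as well, with 134 at an unadjusted p under 0.05.

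Without pair 2, and with the pairs as a replicate block, the log2 fold change was 1.46 ± 0.19 (SE) for *Brca1*. It was 1.33 ± 1.01 for *Bard1*, 0.57 ± 0.42 for *Brip1*, 0.40 ± 0.29 for *Rad51c*, 0.36 ± 0.35 for *Brca2*, 0.32 ± 0.80 for *Fancd2* and -0.02 ± 0.61 for *Fanci*. This fit called 155 of 11906 genes, or 1.3% (0.932% higher and 0.37% lower in HPC), and among the 7 of these genes that it tested it called 1, *Brca1*. Because *Brca1* was chosen on this contrast, nothing is read from that call. Whether *Brca1* differed more than its partners was not tested.

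Other repair genes, listed by function, were about evenly split between the gates. In the fit without pair 2, 80 of 92 listed genes were tested (strand exchange mediators, end resection, the BRCA1-A complex, Fanconi core and effectors, damage kinases and sensors, and end joining), with 42 higher and 38 lower in HPC and a median log2 fold change of 0.02, against 0.00 over all genes tested. Of these 80 genes 1 passed the test, where 1.3% of all genes did, so the count is at the background. It was *Xrcc2*, a gene of strand exchange, which rose by 0.98 ± 0.23 (SE; adjusted p 0.0287, edgeR). Its levels were 42.3, 22.7 and 35.7 CPM in HPC and 19.2, 51.2 and 19.7 CPM in LPC libraries, so pair 2 went the other way, and the change was 0.17 ± 0.55 over 6 libraries.

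Genes of the cell cycle and of the p53 response were examined beside the repair genes. In the fit without pair 2, 0.932% of all genes tested were called higher in HPC. There 0 of 36 replication genes passed, and 3 of 16 tested p53 targets rose. Of 26 mitosis genes 2 rose (*Top2a*, a DNA topoisomerase gene, by 1.04 and *Cdk1*, the mitotic kinase gene, by 0.91). *Cdkn1a*, the gene of the cyclin-kinase inhibitor p21, had 401, 414 and 301 CPM in HPC and 211, 140.1 and 186 CPM in LPC libraries, with no overlap, and rose by 0.80 ± 0.13 (adjusted p 0.00171, edgeR). In the fit to 6 libraries no gene passed. The gene with the smallest unadjusted p in each repair list was *Helq* (-2.30 ± 1.37, log2 ± SE), *Rad50* (-1.30 ± 0.63), *Uimc1* (-0.59 ± 0.43), *Ercc1* (-0.94 ± 0.83), *Rnf8* (0.47 ± 0.41) and *Rif1* (-0.89 ± 0.58). In the replication, mitosis and p53 lists it was *Pole* (0.89 ± 0.79), *Ttk* (2.20 ± 1.57) and *Cdkn1a* (1.05 ± 0.37).

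The pairs were then compared with each other within the gates, a contrast on which *Brca1* was not chosen. From pair 1 to pair 3 *Brca1* rose, and 4 partners fell: *Brip1*, *Rad51c*, *Fancd2* and *Fanci*. Of the 7 genes tested, 4 (*Bard1*, *Brip1*, *Fancd2* and *Fanci*) reached the level of the filter on low counts in both libraries of pair 1 and not in both of pair 3, so they entered the test through the pair in which they were high. Their direction was set by that entry, and it is no support for the partners as a group; *Brca1*, *Brca2* and *Rad51c* reached the level in all 4 libraries. In HPC *Brca1* went from 58.9 to 138 CPM, a ratio of 2.35 (2.09 to 2.65), and in LPC from 24.1 to 44.9 CPM, a ratio of 1.86 (1.54 to 2.26). The LPC library of pair 3 still lay below the HPC library of pair 1. Fitted to these 4 libraries with the pigment group as covariate, the log2 fold change of pair 3 over pair 1 was 1.08 ± 0.19 (SE; Benjamini-Hochberg adjusted p 8.68e-05 in edgeR's quasi-likelihood test). In the same test 3035 of 11906 genes were called, or 25.5%, with 11.8% of genes higher and 13.7% lower in pair 3. Each pair is 1 set of libraries, so the test compares these 4 libraries, and what differed between the pairs is not given in the labels. In these bulk samples, fewer cells of a type and less RNA per cell cannot be told apart.

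The Fanconi pair was at or near 0 in pair 3, and both genes entered the test through pair 1 alone. *Fancd2* went from 10.3 and 8.10 CPM in HPC and LPC libraries of pair 1 to no count in either library of pair 3, at least 29.2-fold lower in HPC and at least 25.7-fold lower in LPC (adjusted p 2.35e-06, edgeR; 0.138 in DESeq2, which did not call it). *Fanci* went from 10.9 and 10.2 CPM to 0.234 and 0.315 CPM, a ratio of 0.0261 (0.00835 to 0.0626) and a log2 difference of -5.18 ± 0.71 (SE; adjusted p 3.86e-06, edgeR). *Polg*, the gene that overlaps *Fanci*, went from 13.3 and 9.75 CPM to 17.8 and 9.34 CPM and did not pass (0.18 ± 0.34, adjusted p 0.750, edgeR).

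*Brip1* fell from 22.6 and 15.0 CPM in pair 1 to 1.87 and 1.26 CPM in pair 3, ratios of 0.0827 in HPC and 0.0838 in LPC, a log2 difference of -3.57 ± 0.44 (SE; adjusted p 8.09e-07, edgeR). Both gates gave nearly the same ratio, and *Brip1* too entered the test through pair 1 alone. *Rad51c* fell less, from 25.4 and 17.5 CPM to 13.3 and 10.9 CPM (-0.81 ± 0.30, adjusted p 0.0466, edgeR). That call was lost in DESeq2 (adjusted p 0.273), without the filter on low counts (0.0539) and without the covariate (0.0966).

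*Bard1* and *Brca2* did not pass. *Bard1* had 16.8 and 15.2 CPM in pair 1 and 3.39 and 0 CPM in pair 3, a log2 difference of -3.69 ± 1.05 (SE; adjusted p 0.0544, edgeR), and it was called by limma-voom (adjusted p 0.00277) and without the filter on low counts (9.36e-10). *Brca2* had 20.7 and 11.6 CPM in pair 1 and 9.47 and 10.2 CPM in pair 3 (-0.66 ± 0.35, adjusted p 0.180, edgeR). Its ratio of pair 3 to pair 1 was 0.458 (0.342 to 0.610) in HPC and 0.880 (0.641 to 1.21) in LPC. *Palb2*, not tested for its low counts, had 1.63 and 0.992 CPM in pair 1 and 0 and 0.840 CPM in pair 3.

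Counted together, 7 of the 8 genes had both values of pair 3 below both values of pair 1, and *Brca1* was the other gene. The share of genes tested was 30%, but the count is not read against it. *Palb2* was not tested, and the direction of *Bard1*, *Brip1*, *Fancd2* and *Fanci* was set by their entry. Of the 2 partners that reached the filter's level in all 4 libraries, *Rad51c* was called lower and *Brca2* was not called, where 13.7% of all genes tested were called lower. With all 6 libraries in the fit, pair 2 included, 0 of 12139 genes were called, 1030 had an unadjusted p under 0.05, and the adjusted p of *Brca1* was 0.978. Without the covariate the adjusted p of *Brca1* was 0.433 in edgeR.

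**Figure D3:**
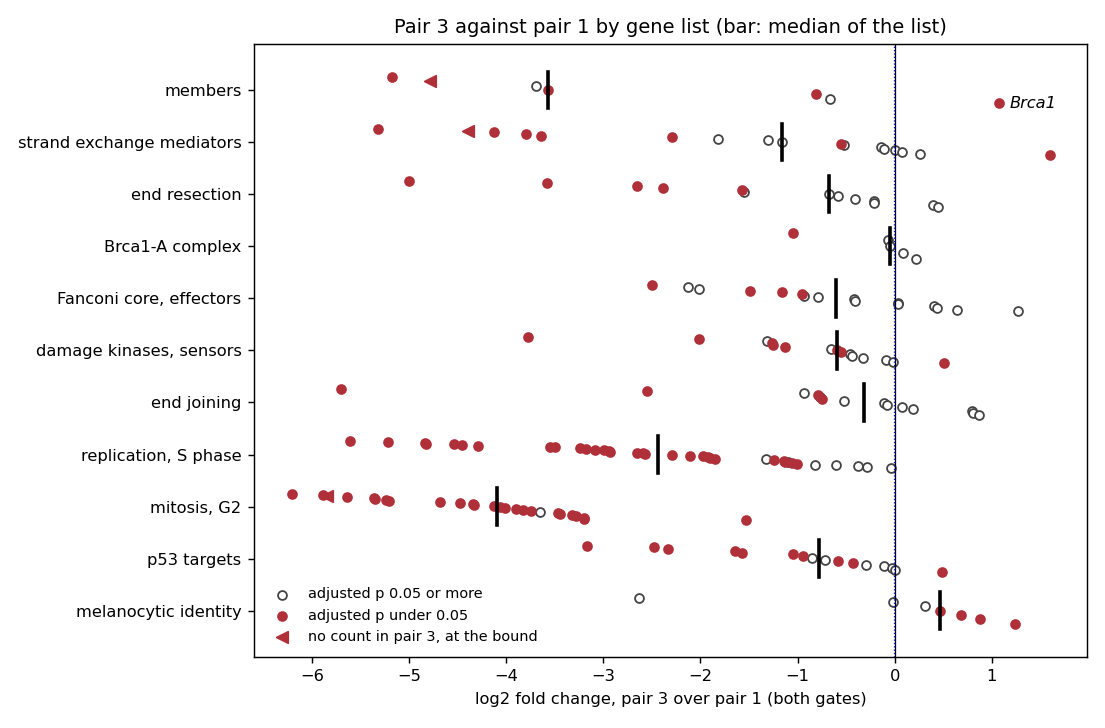
Log2 fold change of pair 3 over pair 1 for each gene of 11 lists, one row per list; filled points have an adjusted p under 0.05, triangles are genes with no count in pair 3 placed at their bound, black bars are list medians and the dotted line is the median of all genes. *Brca1* lies at 1.08 and *Rad51c* at -0.81, and the mitosis and replication medians are -4.10 and -2.43.

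The wider repair lists are given beside the shares of all genes tested, of which 13.7% were called lower and 11.8% higher. Of 80 tested genes 60 had a negative log2 fold change, 28 of which passed the test, and 2 rose, with a median of -0.57. Of 17 strand exchange mediator genes 7 fell and 1 rose. *Rad54l*, a gene for a DNA motor protein of strand exchange, fell by 3.80 on the log2 scale but entered the test through pair 1 alone. *Swsap1*, another mediator gene, rose by 1.60. In the other lists 5 of 13 end resection genes fell, with the nuclease gene *Exo1* at -5.00, 4 of 16 Fanconi core and effector genes, with the ubiquitin-conjugating enzyme gene *Ube2t* at -2.50, and 1 of 5 BRCA1-A complex genes. The count for the BRCA1-A complex is 1 gene, and nothing is read from it. Of 15 damage kinase and sensor genes 7 fell, with the checkpoint adaptor gene *Clspn* at -3.78, and *Rad17*, a clamp loader gene, rose by 0.51. Of 14 end joining genes 4 fell, with the polymerase theta gene *Polq* at -5.71. Through pair 1 alone entered 7 of the strand exchange mediators, 2 each of the end resection, Fanconi and end joining genes, and none of the BRCA1-A complex or damage kinase genes. Among them were *Rad54l*, *Rad54b*, *Rad51ap1*, *Mnd1*, *Psmc3ip*, *Exo1*, *Blm*, *Dclre1c* and *Polq*, all counted above as fallen. Their direction was set by that entry, so they are no support for a fall of their lists. Counts for the 80 genes and for the strand exchange, end resection and end joining lists include them and are not read against the shares. Without them, the genes that fell were *Shfm1* and *Mcm8* for strand exchange. They were *Rpa2*, *Rpa3* and *Rmi2* for end resection, and *Xrcc5* and *Parp1* for end joining.

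Genes of dividing cells were lower in pair 3 as well. Of 36 replication genes 29 fell and 0 rose (median -2.43), and of 26 mitosis genes 25 fell and 0 rose (median -4.10). Of all genes tested 13.7% were called lower. Of the genes tested, 8 replication and 10 mitosis genes, *Mki67* among them, entered through pair 1 alone. Their direction was set by that entry. The summed level of the mitosis list was 2302 and 1663 CPM in HPC and LPC libraries of pair 1, 301 and 194 CPM in pair 2, and 132 and 98.5 CPM in pair 3. *Mki67*, a marker of cycling cells, had 53.5 and 40.5 CPM in pair 1, 0 and 8.58 CPM in pair 2, and 0.234 and 1.99 CPM in pair 3 (-5.36 ± 0.51 for pair 3 over pair 1, adjusted p 1.14e-05, edgeR). The part of this shift in the fall of the partners was not tested. *Brca1*, itself often counted among the genes of dividing cells, was higher in pair 3 than in pair 1, although the summed level of the mitosis list was lower there. In pair 2 both were below their levels in pair 1 in each gate.

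*Brca1* shared its direction with its neighbour and with some melanocytic genes. *Nbr1* rose from 52.9 and 53.4 CPM in pair 1 to 83.2 and 77.7 CPM in pair 3 (0.60 ± 0.18, adjusted p 0.0141, edgeR). *Mitf*, the melanocyte master regulator gene, rose from 153 and 114 CPM to 325 and 300.2 CPM (1.24 ± 0.14, adjusted p 1.78e-07, edgeR). Of 7 melanocytic genes 4 were called higher and 0 lower (median 0.47), where 11.8% of all genes tested were called higher. Not called were *Mlana* (0.31), *Tyrp1* (-0.015) and *Tyr* (-2.63, adjusted p 0.464, edgeR). *Cdkn1a*, which differed between the gates, did not pass between the pairs (-0.30 ± 0.13, adjusted p 0.103, edgeR).

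**Figure D4:**
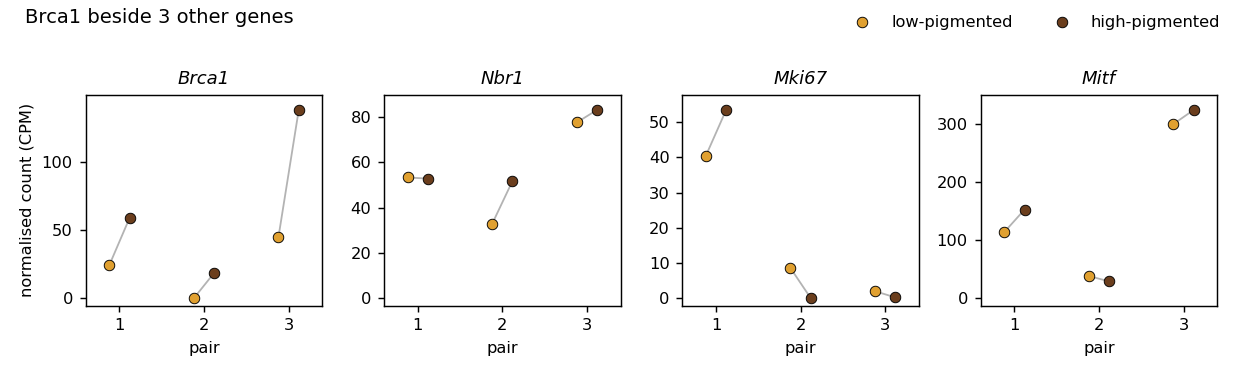
Normalised count (CPM, linear axes) of *Brca1*, *Nbr1*, *Mki67* and *Mitf* by pair; dark points are HPC and light points LPC libraries. *Brca1* and *Mitf* are highest in pair 3, at 138 and 325 CPM in the HPC library, where *Mki67* is at 0.234 CPM.

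The genes whose log2 levels were most like those of *Brca1* over the 6 libraries, among 7782 genes with a mean of at least 10 CPM, were *Acyp1* (Pearson's r 0.999, Spearman's rho 1), *Ppp6r1* (0.996 and 1), *Snn* (0.995 and 0.943), *Mylk* (0.993 and 0.943) and *Ubl3* (0.992 and 1). All 5 were lowest in the LPC library of pair 2, where *Brca1* had no count, and the 6 points share pairs and depth. For the partners r was 0.52 for *Bard1*, -0.01 for *Brca2* and *Brip1*, -0.19 for *Fancd2*, -0.41 for *Fanci*, -0.51 for *Palb2* and -0.65 for *Rad51c*. It was 0.89 for *Nbr1*, 0.71 for *Mitf* and -0.18 for *Mki67*. These values describe 6 libraries and carry no test.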

How the data were processed

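RNA from 6 sorted B16-F10 samples was sequenced from transcript 3′ ends, per the labels' protocols. The authors deposited a table of raw counts per gene; STAR and GRCm38 are named in the submitters' processing notes, and the counting mode and strand setting are not given in the sources used here. Left out were 2 tally rows that name no gene. Counts were tested with edgeR 4.0.16 (R 4.3.3; quasi-likelihood, filterByExpr with a minimum count of 10, TMM) over all genes, with Benjamini-Hochberg adjustment and a threshold of 0.05. High- and low-pigmented libraries (3 each) were compared without a block, and pair 3 with pair 1 in 4 libraries with the pigment group as covariate, which leaves 1 residual degree of freedom per gene. Alternatives used DESeq2 1.42.0, limma 3.58.1, other size factors, no filter, the pair block and libraries left out. The fits were tested on simulated counts.

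The shared title suffix was taken as pairing. Libraries sharing a suffix deviated together from their group means (correlations 0.466, 0.316 and 0.422). Correlations between libraries with unlike suffixes were not computed, and pair 2 stood apart in both groups, so these values do not test the pairing. Ratios use counts on TMM-scaled sizes with exact binomial 95% intervals and a floor of 3 counts per library, which is 0.315 to 1.75 CPM per library. The members and lists were chosen with earlier results of these data known. Named by rule were the 8 genes, from each repair, replication, mitosis and p53 list the gene of smallest p between the gates, *Cdkn1a*, *Mki67*, *Nbr1* and the 5 genes most correlated with *Brca1*; other names were chosen after their values were seen. A further gene of the rule is not reported here and was taken out of its list. Gene positions come from GENCODE vM21.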

Additional observations from a re-analysis of the deposited data

How the results depend on the processing

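Between the gates, 0 genes were called by edgeR and 0 with the pair as a replicate block. The count was 155 without pair 2 with the replicate block and 354 by limma-voom on the same libraries; leaving out each library in turn gave 0. The log2 fold change of *Brca1* stayed positive in every setting run and lay between 0.74 and 2.57 with a library left out. Partners changed sign: *Brip1* was -0.43 with the replicate block (0.28 without), *Brca2* was 0.36 in edgeR and 0.37 in limma-voom without pair 2 (-0.18 with it), and *Fanci* was 0.056 in limma-voom (-0.75). With 1 library left out the ranges were -1.22 to 0.37 for *Brca2*, -1.28 to 8.37 for *Bard1*, -2.67 to 1.61 for *Brip1*, -0.46 to 1.26 for *Rad51c* and -5.14 to -0.19 for *Fanci*. The cause was not tested.

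Between pairs 3 and 1, 3035 genes were called, and 1705 in DESeq2, 1939 without the covariate and 0 with all 6 libraries. Leaving out a library leaves no residual degree of freedom and so no test. In place of a fit, the difference in log2 CPM (prior count 2) between the pairs was taken within the gate left complete. It is another measure than the fitted change, and it depends on the prior count for genes at or near 0 counts. The values of the gates ran from 0.89 to 1.23 for *Brca1*, -1.10 to -0.18 for *Brca2*, -5.52 to -2.20 for *Bard1*, -3.38 to -3.27 for *Brip1*, -0.91 to -0.67 for *Rad51c*, -4.97 to -4.64 for *Fancd2* and -4.30 to -4.02 for *Fanci*. Depth limits *Palb2*, *Fancd2* and *Fanci* in particular, and 5 of the 8 genes had no count in the high-pigmented library of pair 2.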
